A study of Mus musculus with 6 samples.

Results

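The genes described here carry glucose into cells and trap it there. They are 6 glucose transporters (Slc2a1, Slc2a3, Slc2a4, Slc2a6, Slc2a8 and Slc5a1) and 4 hexokinases (Hk1, Hk2, Hk3 and Hkdc1), found by their symbols alone among the 22183 genes of the deposited table. Each of the 10 symbols matched a row. RNA was sequenced from CD31+ peritoneal endothelial cells (ECs) of wild-type male C57BL/6J mice, with 1 library per mouse. The 3 PD mice had received peritoneal dialysis (PD) fluid, a glucose-based dialysate, as a daily intraperitoneal injection for 6 weeks, and the 3 saline mice had received saline by the same schedule. The labels describe magnetic sorting for CD31 from the peritoneum, whereas the supplementary methods describe flow sorting of mesenteric cells that were CD31+ and CD45-.

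Glucose crosses the plasma membrane through facilitative carriers of the GLUT family, encoded by Slc2a genes, which move it down its gradient, or through sodium-coupled carriers of the SGLT family, encoded by Slc5a genes, which can move it against a gradient. Hexokinases then phosphorylate glucose to glucose 6-phosphate, which cannot leave through these carriers and feeds glycolysis, the pentose phosphate pathway, glycogen and amino sugars. ECs are known for taking up glucose mainly through GLUT1 and for a high rate of glycolysis. Peritoneal capillaries are the vessels across which a dialysate draws water and exchanges solutes.

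The libraries held between 21973426 and 26374292 counts on genes, so counting error was small for all but the rarest members. CPM below are counts per 1000000 of the effective library size, which edgeR's TMM method sets. Of 14005 genes tested, 31.1% were called higher and 27.8% lower in PD mice at an adjusted p under 0.05, so that a called change was common in this comparison. The sort marker Pecam1 (CD31) averaged 469 CPM in saline mice and 514 in PD mice, and Ptprc (CD45), which defines leukocytes, averaged 2373 and 1473 CPM. Per length, Ptprc was at 624 ± 30.2 FPKM (SD, n = 3) without and 392 ± 7.73 with PD fluid, and Pecam1 at 145 ± 4.44 and 158 ± 5.11, so that Ptprc exceeded Pecam1 in both groups, against the CD45- gate. Of the 12 endothelial markers, 11 were called higher, and their summed level was 1568 to 1674 CPM in saline mice and 2751 to 2817 CPM in PD mice. All 10 macrophage markers were called higher, from a sum of 2603 to 2747 CPM to one of 10576 to 11424 CPM. Fewer cells of a type and less RNA per cell cannot be told apart in these bulk libraries.

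**Figure D1:**
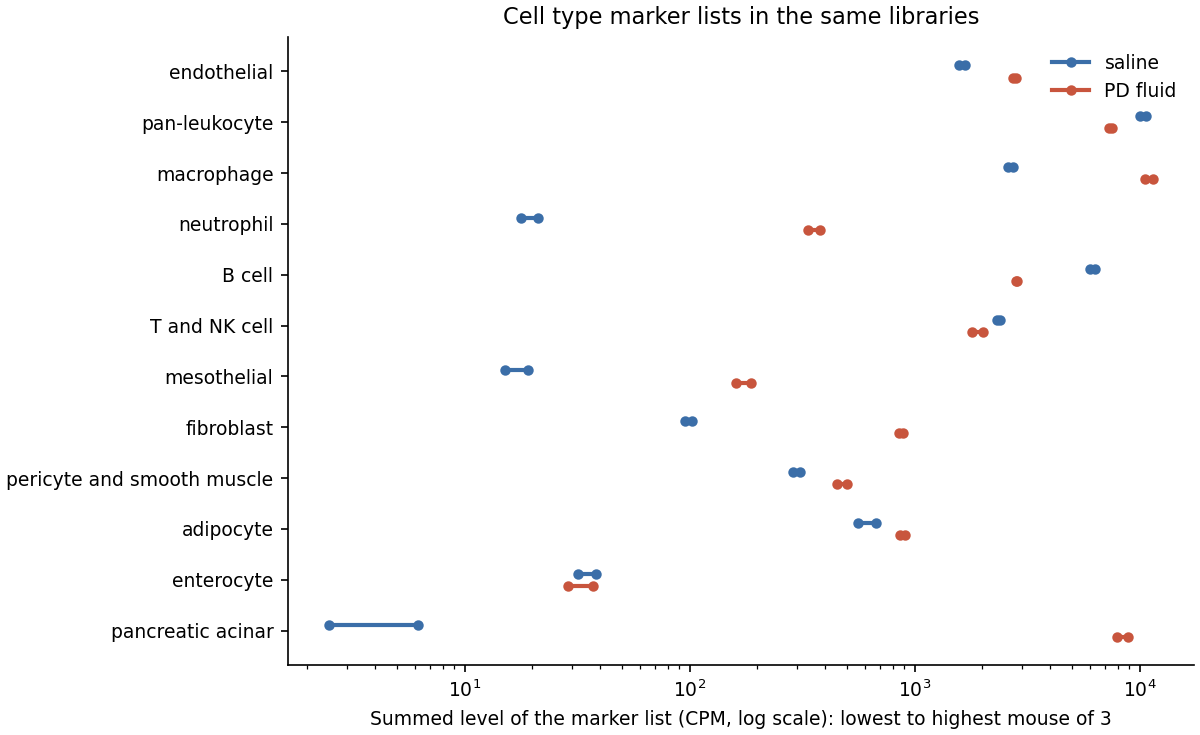
Summed level of each cell type marker list in CPM (log scale), from the lowest to the highest of 3 mice per group. Macrophage markers lay between 2603 and 2747 CPM in saline mice and between 10576 and 11424 CPM in PD mice, while pan-leukocyte markers fell from 10051 to 10658 CPM to 7332 to 7551 CPM.

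Of the 10 members, 9 passed the filter on low counts. Of these 9, 6 were called higher in PD mice, 2 were called lower and Slc2a8 was not called, beside the 31.1% and 27.8% of all tested genes. The values of the 3 PD mice lay above those of the 3 saline mice for 7 of the 10 members, below them for 2, and overlapped for Slc2a8. Among all tested genes, 34.0% lay above without overlap and 31.6% below. Hkdc1, among those 7 members, did not pass the filter, so these percentages do not cover genes like it. With 0 counts in every saline mouse, Hkdc1 could not lie below. The median log2 fold change was 0.54 over the 6 tested transporters and 0.62 over the 3 tested hexokinases, against 0.02 over all tested genes. Slc5a1, with 0, 3 and 0 counts in saline mice, passed the filter through the PD mice alone. It could therefore enter these counts and the transporter median only as higher, and that median is no measure of the transporters as a group. On the TMM scale the carriers Slc2a1 and Slc2a3 were lower, the carriers Slc2a4, Slc2a6 and Slc5a1 were higher, and every tested hexokinase was higher. Scaling to cell type markers, which moved all genes together as given below, turned some of these signs. They turned for Slc2a1 and Slc2a3 under pan-leukocyte markers and for Hk1 and Hk2 under endothelial markers. Under macrophage markers they turned for Slc2a4, Slc2a6 and all 3 hexokinases.

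**Figure D2:**
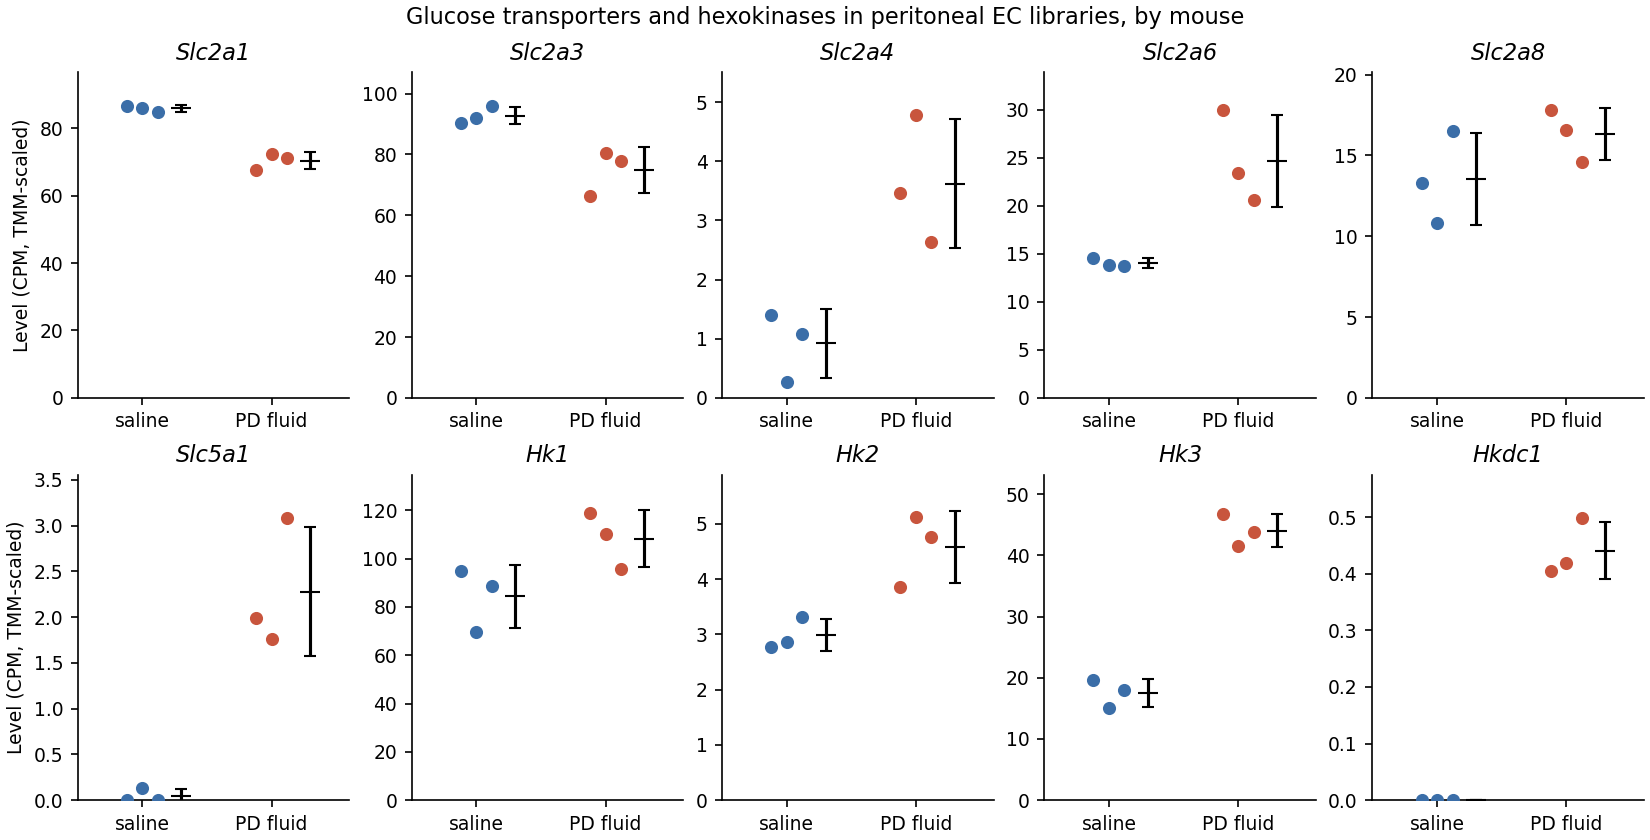
Level of each member in each mouse (points, CPM on the TMM scale), with the mean and SD of each group of 3 mice beside them. Slc2a1 and Slc2a3 lay lower in all 3 PD mice, Slc2a8 overlapped, and the other 7 members lay higher in all 3 PD mice.

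Promoter windows of 300 bases, from 250 before to 50 after each RefSeq transcription start on GRCm38.p6, were found for 8 of the 10 members, with 2 windows for Hk1. The windows of Slc2a3 and Slc2a4 were not analysed here. The letters ACGTG, the core that hypoxia-inducible factors bind, were searched on both strands and occurred in the windows of 5 members and in 19.6% of 32851 windows of all genes. CACGTG, an E-box read by MYC and by the glucose-responsive factor ChREBP, was searched in the same way. A palindrome that contains ACGTG on each strand, it occurred in 1 member, Slc5a1, and in 7.15% of all windows. The 250 bases before the start are printed for the 3 members in which ACGTG lay before the start without forming CACGTG, since Slc2a1 was lower in PD mice and Hk2 and Hk3 were higher. Each is written 5′ to 3′ on the gene's own strand, with the motif, or its reverse complement CACGT, in capitals.
Slc2a1, chr4:119108495-119108744, plus strand: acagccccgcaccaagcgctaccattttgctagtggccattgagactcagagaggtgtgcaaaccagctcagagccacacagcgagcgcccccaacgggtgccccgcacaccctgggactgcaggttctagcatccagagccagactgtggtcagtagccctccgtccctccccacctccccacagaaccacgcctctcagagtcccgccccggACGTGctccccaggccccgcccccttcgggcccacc
Hk2, chr6:82774455-82774704, minus strand: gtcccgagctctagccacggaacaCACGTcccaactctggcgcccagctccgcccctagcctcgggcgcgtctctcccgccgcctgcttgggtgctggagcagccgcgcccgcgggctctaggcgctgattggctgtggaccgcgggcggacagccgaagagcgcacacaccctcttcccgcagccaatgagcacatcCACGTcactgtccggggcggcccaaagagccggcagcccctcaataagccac
Hk3, chr13:55021386-55021635, minus strand: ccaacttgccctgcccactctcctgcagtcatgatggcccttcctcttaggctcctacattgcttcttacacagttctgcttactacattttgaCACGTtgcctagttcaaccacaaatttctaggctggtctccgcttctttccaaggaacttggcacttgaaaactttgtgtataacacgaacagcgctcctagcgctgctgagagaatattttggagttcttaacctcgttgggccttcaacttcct
The motif began 36 bases before the start in Slc2a1, 226 and 52 bases before it in Hk2, and 156 bases before it in Hk3. In Hk1 it was found in 1 of the 2 windows, after the start, at bases 8 and 17. The windows of Slc2a6, Slc2a8 and Hkdc1 did not hold these letters. A match of this kind describes the letters and not the binding of a factor.

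Slc2a1 (ENSMUSG00000028645) encodes GLUT1, the carrier of basal glucose uptake in ECs, erythrocytes and many other cells. In GENCODE M21 on GRCm38 it spans chr4:119108711-119137983 on the plus strand. It was read 2220, 1866 and 2048 times in saline mice 1, 2 and 3, and 1834, 1726 and 1574 times in PD mice 1, 2 and 3. On the TMM scale these counts were 86.7, 86.1 and 84.8 CPM in saline mice and 67.5, 72.4 and 71.3 CPM in PD mice. The saline mice were within 2 CPM of each other, and all 3 PD mice lay below them. The log2 fold change was -0.29 (SE 0.07, adjusted p = 0.00339, edgeR's quasi-likelihood test), a level 18.0% lower.

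Slc2a3 encodes GLUT3, a carrier with high affinity for glucose that is prominent in neurons and is also expressed by leukocytes and platelets. It spans chr6:122727809-122801640 on the minus strand. Its level was 90.3, 92.1 and 95.8 CPM in saline mice and 66.2, 80.4 and 77.8 CPM in PD mice, with PD mouse 1 the lowest and no overlap between the groups. This was a log2 fold change of -0.31 (SE 0.08, adjusted p = 0.00754, edgeR). Slc2a3 and Slc2a1 kept nearly the same proportion, Slc2a3 counts being 104%, 107% and 113% of Slc2a1 counts in saline mice and 98.1%, 111% and 109% in PD mice. The log2 difference of that ratio was -0.03, with overlapping groups (two-sided exact permutation test, p = 0.8, 0.8 after adjustment over 20 ratios). Leukocyte markers did not move together here, macrophage markers being higher as given above. Summed B cell markers were at 6035 to 6335 CPM in saline mice and 2831 to 2847 CPM in PD mice. Platelet markers were at 36.5 to 38.3 and 97.6 to 104 CPM, mostly Pf4, the 1 of 3 tested platelet markers that was called. Ppbp (0.14) and Itga2b (0.19) were not called, so that sum does not speak for platelets. The part of these lineages in the Slc2a3 result was not tested.

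Slc2a4 encodes GLUT4, the carrier that insulin brings to the surface of fat and muscle cells. It spans chr11:69942539-69948188 on the minus strand. Its counts were low, at 36, 6 and 26 in saline mice and 94, 114 and 58 in PD mice, and saline mouse 2 was the lowest of all. The level averaged 0.920 ± 0.581 CPM (SD, n = 3) in saline mice and 3.62 ± 1.09 CPM (SD, n = 3) in PD mice. The log2 fold change was 1.95 (SE 0.43, adjusted p = 0.00258, edgeR), with a 95% interval of 1.01 to 2.89. Adipocyte markers summed to 563 to 671 CPM in saline mice and 862 to 910 CPM in PD mice, and 5 of 8 tested were called higher. The 5 were Lipe, Plin4, Pnpla2, Fabp4 and Pparg, with log2 fold changes from 0.49 for Lipe to 1.66 for Plin4. Plin4 averaged 1.03 CPM without and 3.22 CPM with PD fluid. The 3 not called were Adipoq, Plin1 and Cidec, at -0.30, 0.54 and -0.36. Adipoq averaged 3.21 CPM without and 2.60 CPM with PD fluid. Lep was at 0 counts in all PD mice. Of 4 tested skeletal muscle markers, 1 was called lower and none higher. Of 8 tested pericyte and smooth muscle markers, 7 were called higher and 0 lower. These summed to 288 to 311 CPM in saline mice and 450 to 500 CPM in PD mice. The part of fat or muscle RNA in the Slc2a4 result was not tested.

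Slc2a6 encodes GLUT6, a carrier kept largely on lysosomal membranes and known from spleen, leukocytes and activated macrophages. It spans chr2:27021363-27027998 on the minus strand. It was read 373, 300 and 332 times in saline mice and 815, 559 and 455 times in PD mice. The level was 14.6, 13.8 and 13.7 CPM in saline mice and 30.0, 23.4 and 20.6 CPM in PD mice. All 3 PD mice lay above the saline mice, with a wider spread among themselves. Slc2a6 had a log2 fold change of 0.81 (SE 0.14, adjusted p = 4.89e-04, edgeR). Within each library, Slc2a6 counts were 16.8%, 16.1% and 16.2% of Slc2a1 counts in saline mice and 44.4%, 32.4% and 28.9% in PD mice. The 2 carriers therefore shifted against each other in every PD mouse, by 1.08 on the log2 scale. By an exact permutation test over the mice (two-sided) this had p = 0.1, the lowest value within reach of 3 mice against 3, and 0.125 after adjustment over the 20 ratios.

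Slc2a8 encodes GLUT8, an intracellular carrier with a retention motif, studied in testis, brain and blastocyst. It spans chr2:32972990-32982083 on the minus strand. It was at 13.3, 10.8 and 16.5 CPM in saline mice and 17.8, 16.6 and 14.6 CPM in PD mice. The groups overlapped, saline mouse 3 lying above PD mouse 3. The log2 fold change was 0.27 (SE 0.15, adjusted p = 0.151, edgeR), with a 95% interval of -0.07 to 0.61 that leaves room for a rise of that size.

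Slc5a1 encodes SGLT1, the sodium-coupled carrier of glucose and galactose in the small intestine and the late proximal tubule of the kidney. It spans chr5:33104219-33162870 on the plus strand. It had 0, 3 and 0 counts in saline mice and 54, 42 and 68 counts in PD mice. The saline libraries were at the limit of detection, taken as 3 counts per library, and each PD library was well above it. From the pooled counts of 3 and 164, the ratio of PD mice to saline mice was 53.4, with an exact 95% interval of 18.0 to 262 that covers counting error only. The adjusted p was 6.06e-05 (edgeR). The level in PD mice remained low, at 2.28 ± 0.706 CPM (SD, n = 3). Enterocyte markers moved with it in part. Sis, a brush border disaccharidase, and Fabp2, the intestinal fatty acid binding protein, had 0 counts in every saline mouse and 17 to 29 and 13 to 30 counts in PD mice. The apolipoprotein gene Apoa4 rose from 2 counts in each saline mouse to 139 to 199 counts. Cdh17, an intestinal cadherin that B cells also express, fell by 0.86 on the log2 scale, and Cdx2, the defining transcription factor of intestinal epithelium, had 0 counts in all 6 mice. Of 6 tested enterocyte markers, 4 were called higher and 1 lower. The 4, which were Fabp2, Sis, Alpi and Apoa4, had 0 to 2 counts in each saline mouse. They passed the filter through the PD mice alone and could only come out higher. Epcam, with 111 to 150 counts in each mouse, was tested and not called, at 0.11 on the log2 scale (adjusted p = 0.622, edgeR). Vil1, Lct, Cdx1 and Cdx2 had too few counts to be tested. The mean log2(CPM + 1) of the 10 markers was 0.83 in saline mice and 1.35 in PD mice, without overlap, whereas their summed level, of which Cdh17 held a mean of 28.4 and 15.7 CPM, overlapped at 31.8 to 38.5 and 28.9 to 37.2 CPM. Pancreatic acinar markers also differed, at 2.50 to 6.23 CPM in saline mice and 7973 to 8908 CPM in PD mice. The part of intestinal or pancreatic RNA in the Slc5a1 result was not tested.

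Hk1 encodes hexokinase I, the housekeeping enzyme that sits on mitochondria of most tissues. It spans chr10:62268855-62379908 on the minus strand. Its level was 94.8, 69.8 and 88.6 CPM in saline mice and 119, 110 and 95.5 CPM in PD mice. The groups were close, saline mouse 1 lying just below PD mouse 3, and saline mouse 2 was the lowest. The log2 fold change was 0.36 (SE 0.11, adjusted p = 0.0200, edgeR). This call was lost without PD mouse 1 (adjusted p = 0.0813) and without PD mouse 2 (adjusted p = 0.0591).

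Hk2 encodes hexokinase II, the insulin- and hypoxia-responsive enzyme of muscle, fat and many tumours. It spans chr6:82725025-82774454 on the minus strand. It was read 71, 62 and 80 times in saline mice and 105, 122 and 105 times in PD mice, or 2.77, 2.86 and 3.31 CPM and 3.86, 5.12 and 4.76 CPM. The PD mice lay above the saline mice, and Hk2 was by far the rarer of the 2 mitochondrial hexokinases. Hk2 had a log2 fold change of 0.62 (SE 0.20, adjusted p = 0.0201, edgeR). The call was lost without saline mouse 1 (adjusted p = 0.0609), PD mouse 2 (adjusted p = 0.0804) or PD mouse 3 (adjusted p = 0.0503). The ratio of Hk2 to Hk1 overlapped between the groups, with a log2 difference of 0.25 (exact permutation test, p = 0.4, adjusted p = 0.444).

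Hk3 encodes hexokinase III, which lacks a mitochondrial binding sequence and is expressed chiefly by myeloid cells. It spans chr13:55005985-55021385 on the minus strand. It was read 501, 327 and 434 times in saline mice and 1271, 989 and 966 times in PD mice. The level was 19.6, 15.1 and 18.0 CPM in saline mice and 46.8, 41.5 and 43.8 CPM in PD mice. Every PD mouse was above 40 CPM and every saline mouse below 20 CPM. Hk3 had a log2 fold change of 1.33 (SE 0.11, adjusted p = 2.29e-06, edgeR), the smallest adjusted p among the members. Hk3 counts were 20.6%, 21.6% and 20.3% of Hk1 counts in saline mice and 39.3%, 37.8% and 45.8% in PD mice. This ratio differed by 0.97 on the log2 scale without overlap (exact permutation test, p = 0.1, the smallest possible, and 0.125 adjusted over 20 ratios). On the opposite strand, Unc5a shares 34 exonic bases with Hk3, Hk1os 157 with Hk1 and Gm12868 105 with Slc2a1. Without a stated strand setting, reads cannot be separated there. Neutrophil markers moved with Hk3 and Slc2a6, from 17.9 to 21.1 CPM in saline mice to 336 to 379 CPM in PD mice, beside the macrophage markers given above. With the libraries scaled to the sum of the macrophage markers, an alternative chosen after seeing the data, Hk3 was lower in PD mice by -0.71 (SE 0.12) and Slc2a6 by -1.22 (SE 0.16) on the log2 scale, where the median of all genes moved by -2.04. Both therefore rose less than the summed macrophage markers did. Lyz2 alone made up most of that sum, at a mean of 1634 CPM without PD fluid and 6690 CPM with it. The part of macrophage or neutrophil RNA in the Hk3 and Slc2a6 results was not tested.

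Hkdc1 encodes a hexokinase domain protein of intestinal and other epithelia and lies 3228 bases from Hk1 on the same strand, at chr10:62383137-62422491. It had 0 counts in all 3 saline mice and 11, 10 and 11 counts in the PD mice, too few to pass the filter. The mean of 0.441 ± 0.0504 CPM (SD, n = 3) in PD mice was at least 3.50-fold higher than a floor of 3 counts per saline library. With no filter on low counts, its adjusted p was 0.00148 (edgeR), but with 0 counts in every saline mouse Hkdc1 could only come out higher. Hkdc1 and Slc5a1 were the 2 members at or under the floor in every saline mouse, and the intestinal and acinar values given for Slc5a1 apply to Hkdc1 as well.

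Levels can be compared between genes only per length, for which the deposited FPKM values were used. In saline mice the order by mean was Slc2a1 (30.7 FPKM), Slc2a3 (24.6), Hk1 (23.8), Slc2a8 (7.27), Slc2a6 (6.56), Hk3 (5.62), Hk2 (0.539), Slc2a4 (0.445), Slc5a1 (0.0110) and Hkdc1 (0). Neighbours whose ranges over 3 mice overlapped were Slc2a3 with Hk1, Slc2a8 with Slc2a6, Slc2a6 with Hk3, Hk2 with Slc2a4, and Slc5a1 with Hkdc1. In PD mice Hk1 came first, at 31.1 FPKM, followed by Slc2a1 (24.8), Slc2a3 (19.9), Hk3 (13.8), Slc2a6 (11.7), Slc2a8 (8.29), Slc2a4 (1.55), Hk2 (0.832), Slc5a1 (0.554) and Hkdc1 (0.126). Ranges overlapped there only for Hk3 with Slc2a6 and for Hk2 with Slc5a1. Hk1 thus passed Slc2a1, and Hk3 moved from below Slc2a8 to above it. Hk1 passed Slc2a3 by the mean only. It already lay above Slc2a3 in saline mice 1 (26.3 against 25.5 FPKM) and 3 (24.8 against 24.6), and below it in saline mouse 2 (20.3 against 23.9).

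Summed over the 4 hexokinases, the level was 25.6 to 33.3 FPKM in saline mice and 42.0 to 50.3 FPKM in PD mice. Hk1 made up 79.5% ± 0.507 (SD, n = 3) of that sum in saline mice and 67.7% ± 1.92 (SD, n = 3) in PD mice. Hk3 went from 18.7% ± 0.742 to 30.2% ± 1.82 (SD, n = 3), whereas Hk2 stayed at 1.82% and 1.83%. The sum over 13 GLUT and SGLT carriers overlapped between the groups, at 68.0 to 72.2 FPKM in saline mice and 64.4 to 71.3 FPKM in PD mice. Within it, Slc2a1 was 43.7% ± 2.31 in saline mice and 36.3% ± 1.65 in PD mice (SD, n = 3), and Slc2a3 was 35.1% ± 0.221 and 29.3% ± 2.26. Slc2a6 was 9.34% ± 0.151 and 17.0% ± 2.93. When Slc50a1, a sugar carrier of the SWEET family, was counted as a carrier too, it held 63.2% of the carrier sum in saline mice and 56.0% in PD mice. That sum was 190 to 192 FPKM in saline mice and 155 to 156 FPKM in PD mice, and the share of Slc2a1 in it was 16.1% and 16.0%.

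**Figure D3:**
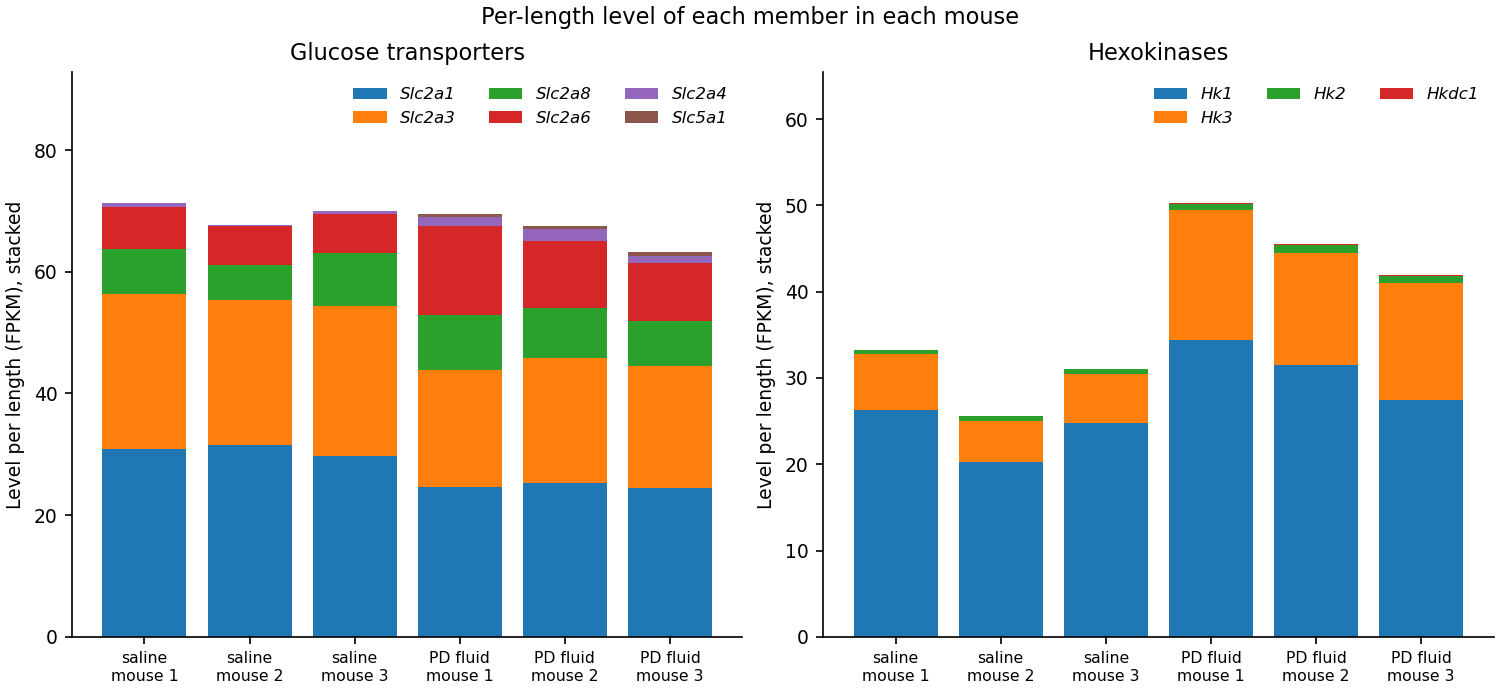
Deposited FPKM of the 6 glucose transporters (left) and 4 hexokinases (right), stacked for each mouse. The hexokinase stacks were taller in all 3 PD mice, mainly through Hk1 and Hk3, while Slc2a1 and Slc2a3 took less of the transporter stack and Slc2a6 took more.

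Because cell type markers differed between the groups, the members were also read against a single cell type's markers. With the libraries scaled to the 12 endothelial markers, 3 members were called higher and 4 lower, where 11.1% and 66.4% of all tested genes were. The median of all genes moved by -0.77 on the log2 scale under this scaling. Slc2a1 and Slc2a3 fell by 1.06 and 1.08 on the log2 scale, Hk1 was at -0.41 (adjusted p = 0.00258, edgeR) and Slc2a8 at -0.50 (adjusted p = 0.00603), both against their TMM direction. Slc2a6 was at 0.04 (adjusted p = 0.789) and Hk2 at -0.15 (adjusted p = 0.517), while Hk3 rose by 0.56, Slc2a4 by 1.19 and Slc5a1 was higher as well. With the libraries scaled to pan-leukocyte markers, 8 members were called higher and 0 lower, where 65.3% and 3.74% of all tested genes were, and the median of all genes moved by 0.48. Each scaling moves all genes nearly alike, so the distance between the members' median and that of all genes was bound to stay. The members' median, which Slc5a1 could enter only as higher, is no measure of the members as a group. This median was the value of Hk2 each time. It was 0.62 against 0.02 under TMM, -0.15 against -0.75 under endothelial scaling and 1.09 against 0.50 under pan-leukocyte scaling. Slc2a1 was then at 0.19 (adjusted p = 0.0175) and Slc2a3 at 0.17 (adjusted p = 0.0923). Slc2a4, Hk3 and Slc5a1 were called higher under TMM, endothelial and pan-leukocyte scaling, and the direction of Slc2a1, Slc2a3, Slc2a8, Hk1 and Hk2 depended on which of these scalings was used.

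**Figure D4:**
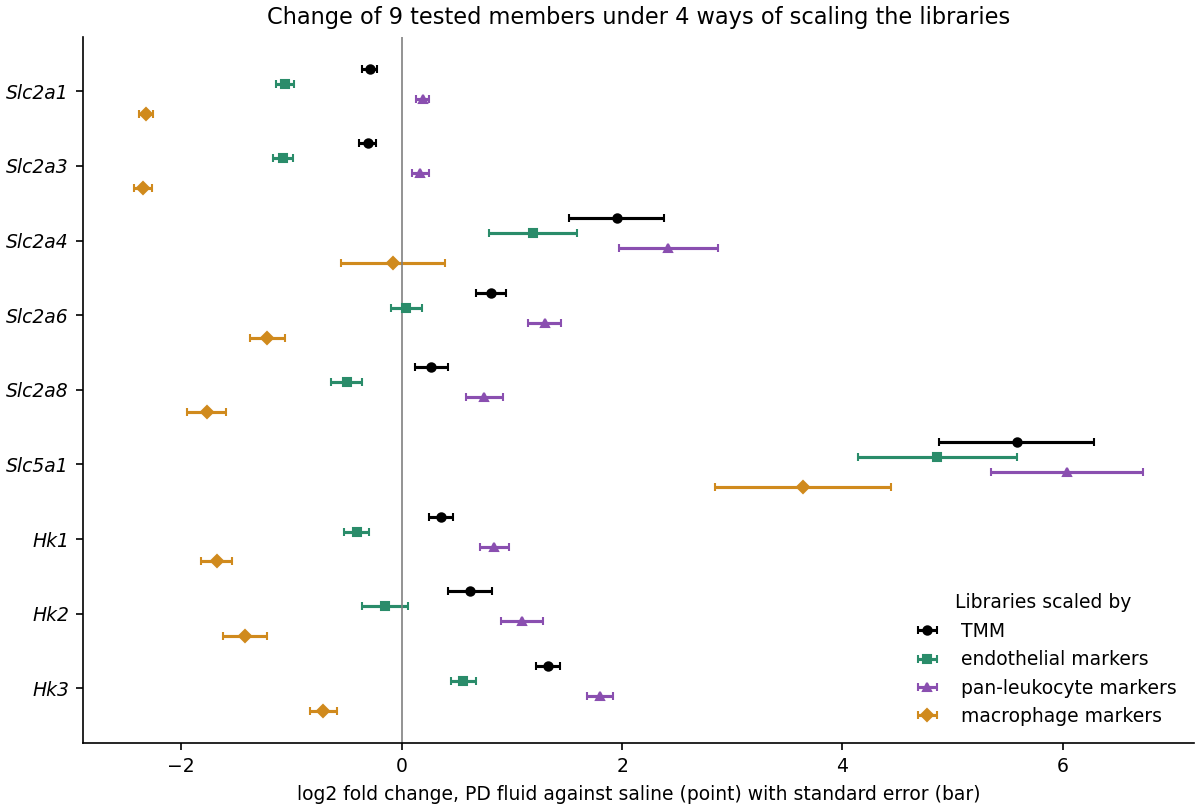
Log2 fold change of the 9 tested members (points) with its standard error (bars), with libraries scaled by TMM, endothelial, pan-leukocyte or macrophage markers. Hk3 was at 1.33, 0.56, 1.80 and -0.71 in that order, and Slc2a1 at -0.29, -1.06, 0.19 and -2.32.

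Ratios within a library do not depend on scaling. Relative to Pecam1, Slc2a1 counts were 18.9%, 17.5% and 18.5% in saline mice and 13.0%, 14.3% and 13.8% in PD mice, a log2 difference of -0.42. Slc2a3 was lower relative to Pecam1 by -0.45, and Hk3 was higher by 1.20, Slc2a6 by 0.66 and Hk2 by 0.48, each without overlap. Hk1 and Slc2a8 overlapped relative to Pecam1, at 0.23 and 0.16. With Slc2a4, 4 members were thus higher and 2 lower without overlap relative to Pecam1, where 26.8% and 40.4% of 13811 genes were. Slc2a4 was higher relative to Pecam1 by 2.10, or by 1.35 without saline mouse 2. Relative to Ptprc, which itself fell, the 8 members with a ratio were higher in all 3 PD mice, as were 82.6% of all genes, so that this count says little about the members. These differences ran from 0.37 for Slc2a3 to 2.92 for Slc2a4 on the log2 scale, the latter being 2.16 without saline mouse 2. Of the 20 ratios, those without overlap had p = 0.1 in the two-sided exact permutation test and 0.125 after adjustment.

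Counts for related genes are given on the TMM scale, and scaling to markers moved them with all genes. Of 15 other sugar carriers, 6 passed the filter, and 2 were called higher and 1 lower (31.1% and 27.8% of all genes). Slc2a10 (GLUT10) rose by 1.21 and Slc2a13, a proton-coupled myo-inositol carrier, by 1.03, from means of 1.93 and 0.672 CPM in saline mice. Slc50a1 fell from 121 to 87.4 CPM, a log2 fold change of -0.47 (adjusted p = 1.98e-04, edgeR). Of 8 other sugar kinases, 7 were tested and 1 was called, Nagk, the kinase of N-acetylglucosamine, at 0.31. Adpgk, the one with the highest CPM, which uses ADP to phosphorylate glucose, averaged 82.1 CPM without and 80.7 CPM with PD fluid (adjusted p = 0.775, edgeR).

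Among 17 genes that lead glucose 6-phosphate to its fates, 16 were tested, 6 were called higher and 2 lower, with a median log2 fold change of 0.04. Under endothelial scaling the counts were 3 and 12, and under pan-leukocyte scaling 14 and 0. Gfpt2, the first enzyme of hexosamine synthesis, rose by 2.65, from 6.34 to 39.8 CPM (adjusted p = 2.70e-08, edgeR), while its paralogue Gfpt1 was at 0.02. Pygl, the liver form of glycogen phosphorylase, rose by 1.70, and H6pd, the hexose 6-phosphate dehydrogenase of the endoplasmic reticulum, by 1.46. G6pdx, the first enzyme of the pentose phosphate pathway, rose by 0.28, and Pgm3, of amino sugar synthesis, fell by 0.30. Gpi1, which takes glucose 6-phosphate into glycolysis and had the highest CPM of the list, averaged 137 CPM without and 140 CPM with PD fluid (adjusted p = 0.653, edgeR). Of 27 genes of glycolysis after the hexokinase step, 26 were tested, 10 were called higher and 4 lower, with a median of 0.13. These counts were 3 and 19 under endothelial scaling and 22 and 0 under pan-leukocyte scaling. Slc16a3, the lactate exporter MCT4, rose by 2.86, and Pfkfb3, which makes the activator of phosphofructokinase, by 1.03. Eno1, with the highest CPM of the list at 1529 in saline mice, fell by 0.15, and Bpgm, which diverts a glycolytic intermediate to bisphosphoglycerate, by 0.63. Pkm, the pyruvate kinase of most tissues, averaged 840 CPM without and 818 CPM with PD fluid (adjusted p = 0.596).

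Of 28 regulators of glucose carriers, 27 were tested, 15 were called higher and 1 lower, with a median of 0.30. With endothelial scaling 3 were called higher and 16 lower (median -0.47), and with pan-leukocyte scaling 26 and 0 (median 0.78), where the medians of all genes were -0.75 and 0.50. Txnip and Arrdc4, arrestin-like proteins that draw GLUT1 from the surface and are induced by glucose, rose from 221 to 371 CPM and from 33.4 to 63.4 CPM. Mlxipl, which encodes ChREBP, went from 4, 5 and 8 counts in saline mice to 273, 236 and 230 counts in PD mice (adjusted p = 2.37e-08, edgeR). Sort1, a sorting receptor of GLUT4 vesicles, rose by 1.52, and Epas1, the hypoxia-inducible factor prominent in ECs, by 1.07, while Hif1a rose by 0.22. Pik3ca, a catalytic subunit of the kinase that insulin activates, fell by 0.33. Of 10 mitochondrial partners of the hexokinases, 9 were tested, 2 were called higher and 4 lower, with a median of -0.19. The outer membrane channel Vdac1, to which hexokinases I and II dock, was higher by 0.26, and its paralogue Vdac2 fell by 0.38. Bad, a regulator of cell death at mitochondria, rose by 0.33, and Slc25a5, an ADP/ATP carrier of the inner membrane, fell by 0.45, from 952 to 695 CPM.

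**Figure D5:**
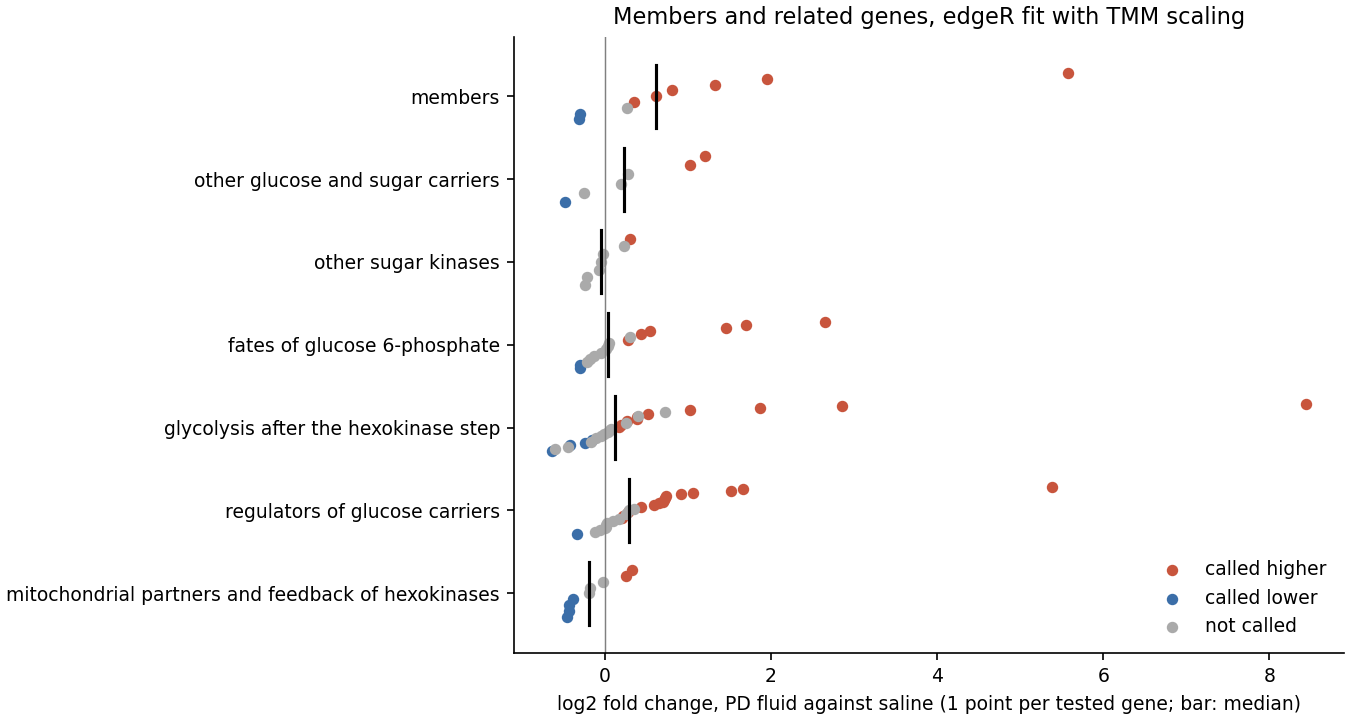
Log2 fold change of each tested member and each tested gene of 6 related lists (points), coloured by its call at an adjusted p under 0.05, with the median of each list (bar). The members' median was 0.62, and the medians of the related lists ran from -0.19 to 0.30. Slc5a1 could enter the members' median only as higher, so it is no measure of the members as a group.

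Genes whose levels over the 6 mice were most like those of Slc5a1 and Hk3, the called transporter and hexokinase with the largest log2 fold change, were sought by the root mean square difference of log2 CPM after centring, over 13960 genes. For Slc5a1 they were Mfap4 (0.321) and Lum (0.372), which encode extracellular matrix proteins, and Igkv7-33 (0.328), an immunoglobulin segment. A small count was added before the logarithm, which draws in levels near 0 such as those of Slc5a1 in saline mice. The fitted log2 fold changes lay further apart, at 5.58 for Slc5a1, 5.22 for Mfap4, 4.04 for Igkv7-33 and 3.91 for Lum. For Hk3 they were Alpk1 (0.0553), an alpha kinase, Ptov1 (0.0581) and Csf1 (0.0582), the growth factor of macrophages. Csf1 was read 658, 427 and 618 times in saline mice and 1732, 1420 and 1258 times in PD mice, with saline mouse 2 the lowest as for Hk3.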

How the data were processed

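RNA sequencing of peritoneal ECs from 3 saline and 3 PD mice was analysed, with groups taken from the sample labels. The authors deposited counts per gene without normalization, and FPKM values per gene and mouse. The submitters' processing notes name fastp 0.18.0, Bowtie2 2.2.8, HISAT2, StringTie 1.3.1 and RSEM, so the counts may be rounded estimates. The genome build and the strand setting of the counting were not given in the sources used here. The authors' means, fold changes, p-values and FDR were not used. The 14005 genes kept by edgeR's filterByExpr were scaled by TMM and tested with edgeR 4.0.16 (quasi-likelihood test, R 4.3.3) with Benjamini-Hochberg adjustment at 0.05, without covariates. The study's methods name limma, and limma-voom (3.58.1) and DESeq2 1.42.0 were alternatives. Standard errors derive from the F statistic. Ratios of counts were tested by exact permutation of the mice, two-sided (scipy 1.17.1), which cannot go below p = 0.1 here. Levels per length are the deposited FPKM, without a test. Counting intervals are exact (Clopper-Pearson, 95%), and they and the floor of 3 counts per library cover counting error only. The fit was tested on simulated data. The members, gene lists and marker lists were chosen with earlier results of these data known. All members are named. From each related list, the called genes with the largest and smallest log2 fold change and the genes with the highest CPM were named, apart from some not reported here, and Slc2a13, Gfpt1, Pygl, H6pd, Slc16a3, Pfkfb3, Arrdc4, Sort1, Epas1 and Vdac1 were added after their values were seen. Similar profiles were sought for the called transporter and hexokinase with the largest absolute log2 fold change. The alternatives were other normalizations, no filter, the replicate block, leaving out each mouse, leaving out 41 acinar genes, and scaling to endothelial, pan-leukocyte or, added after seeing the data, macrophage markers. The grouping of carriers without Slc50a1 was also added then.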

Additional observations from a re-analysis of the deposited data

How the results depend on the processing

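With endothelial scaling, 1555 genes were called higher and 9306 lower, with 3 and 4 members among them; with pan-leukocyte scaling, 9152 and 524, with 8 and 0 members. With macrophage scaling, 12846 genes were called, 290 higher and 12556 lower, with 1 and 7 members. The direction of members turned under pan-leukocyte scaling for Slc2a1 (0.19) and Slc2a3 (0.17), under endothelial scaling for Slc2a8 (-0.50), Hk1 (-0.41) and Hk2 (-0.15), and under macrophage scaling for Slc2a4 (-0.08), Slc2a6 (-1.22), Slc2a8 (-1.77), Hk1 (-1.68), Hk2 (-1.42) and Hk3 (-0.71). Each scaling moves all genes nearly alike, their median by -0.77 with endothelial, 0.48 with pan-leukocyte and -2.04 with macrophage markers, so these turns are not particular to the members. Leaving out 1 mouse at a time, the log2 ratio of Slc2a3 to Slc2a1 changed sign without saline mouse 3 or PD mouse 1 (range -0.06 to 0.03), and that of Slc2a8 to Pecam1 without saline mouse 2 (range -0.03 to 0.33). Log2 fold changes ran from 0.24 to 0.45 for Hk1, 0.54 to 0.73 for Hk2 and 0.14 to 0.43 for Slc2a8, which was called without saline mouse 3 alone (adjusted p = 0.0304, edgeR). For Slc5a1 it ran from 5.01 to 8.80, the highest without saline mouse 2, which held its 3 saline counts. DESeq2, limma-voom, library size alone, no filter and the removal of acinar genes changed no call of the 9 members. The replicate numbers did not pair the mice (correlations of deviations 0.10, 0.04 and -0.17). With the replicate block, 4242 genes were called higher and 3667 lower, and the 9 members kept their calls. Low counts limit the precision for Hkdc1 in PD mice and for Slc2a4 and Slc5a1 in saline mice. The edgeR p-values set the difference between the groups against the spread between mice, as moderated over all genes tested.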
